A study of Mus musculus with 17 samples.

Results

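STAT6 and MYC peaks were compared in mouse bone marrow-derived macrophages that had received IL4 for 2 h. A peak is a stretch of genome where the authors' peak caller found more immunoprecipitated fragments than it allowed for by chance. All peaks of both lists on chromosomes 1 to 19, X and Y were taken, less those that overlapped a peak of the input library, which left 24927 STAT6 peaks and 13211 MYC peaks, together 38138 of the 144384 peaks in the 16 immunoprecipitation lists of the series. A peak was called shared where it overlapped a peak of the other factor by at least 1 bp, and STAT6-only or MYC-only where it did not.

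The study mapped transcription factors in macrophages given IL4, IFNγ or both, and the series design describes it as a survey of how cytokines, alone and in combination, change transcription and the epigenome. STAT6 and MYC with IL4 alone are the groups compared here. In both, marrow of C57BL/6 mice was grown to day 7 in medium conditioned by L929 cells and IL4 was added at 10 ng/ml for 2 h. Chromatin was then precipitated with Santa Cruz antibodies against STAT6 or MYC. The other lists used below come from the same kind of cells. Titles of the MYC, JUNB and CEBPB libraries mark the cells as wild type, and those of the STAT6 and input libraries name no genotype. STAT6 and MYC with IFNγ (100 ng/ml) and IL4 (10 ng/ml) for 2 h, MYC with IL4 for 4 h, and MYC, JUNB and CEBPB in untreated cells serve as comparators, and the input library is from untreated cells. Each group is 1 library, the labels say nothing of separate mice, and no STAT6 list of untreated cells was used here. No difference below therefore has a replicate check or a test. Intervals are exact 95% Clopper-Pearson intervals and cover counting error only.

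IL4 binds its receptor and activates JAK kinases, which phosphorylate STAT6. STAT6 then enters the nucleus as a dimer and binds a palindrome in which TTC and GAA are set apart by 4 bases. In macrophages it is known as the main activator of the alternative programme, with genes such as Arg1, Mrc1 and Retnla. MYC binds as a partner of MAX to the E-box CACGTG, mostly in promoters that are already open, and is known for genes of ribosome production, nucleotide synthesis and energy metabolism.

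A few promoters of the 3 classes are shown in sequence. They are the strongest of their class, by the authors' −log10 p, whose 300 bases hold the summit of each factor listed there and its motif. The candidates were 90 of 951 STAT6-only, 14 of 2385 shared and 417 of 4067 MYC-only promoters, so they are not typical of their class. Sequences are those of RefSeq on GRCm38.p6, from 250 bases before to 50 bases after the gene start, 5′ to 3′ in the direction of the gene, so that the start is at position 251. Capitals mark the STAT6 palindrome, TTC and GAA with any 4 bases between them, and the E-box CACGTG.
Tfec, chr6:16898392-16898691, minus strand: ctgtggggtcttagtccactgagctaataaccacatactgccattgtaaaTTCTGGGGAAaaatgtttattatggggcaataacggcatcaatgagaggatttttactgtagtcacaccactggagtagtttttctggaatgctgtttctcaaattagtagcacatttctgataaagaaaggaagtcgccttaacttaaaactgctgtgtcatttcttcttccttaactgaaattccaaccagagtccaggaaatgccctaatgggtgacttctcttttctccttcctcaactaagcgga
Vrk1, chr12:106030467-106030766, plus strand: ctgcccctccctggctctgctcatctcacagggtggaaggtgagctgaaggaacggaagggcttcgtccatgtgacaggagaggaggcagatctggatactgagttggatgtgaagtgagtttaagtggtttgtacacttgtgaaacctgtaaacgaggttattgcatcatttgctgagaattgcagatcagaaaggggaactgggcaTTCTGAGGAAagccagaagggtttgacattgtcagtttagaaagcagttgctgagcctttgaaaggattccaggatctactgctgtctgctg
Psmb10, chr8:105938343-105938642, minus strand: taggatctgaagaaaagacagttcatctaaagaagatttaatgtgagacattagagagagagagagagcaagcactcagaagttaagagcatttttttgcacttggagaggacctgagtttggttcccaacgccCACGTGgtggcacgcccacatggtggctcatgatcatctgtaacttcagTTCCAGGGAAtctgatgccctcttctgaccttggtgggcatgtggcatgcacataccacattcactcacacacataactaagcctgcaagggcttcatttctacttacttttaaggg
Elf4, chrX:48463083-48463382, minus strand: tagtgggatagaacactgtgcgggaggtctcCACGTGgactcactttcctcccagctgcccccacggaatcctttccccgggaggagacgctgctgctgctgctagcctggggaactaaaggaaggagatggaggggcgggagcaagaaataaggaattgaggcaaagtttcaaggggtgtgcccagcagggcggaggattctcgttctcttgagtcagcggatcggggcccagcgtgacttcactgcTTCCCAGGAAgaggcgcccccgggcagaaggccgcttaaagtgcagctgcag
Tnfaip3, chr10:19015361-19015660, minus strand: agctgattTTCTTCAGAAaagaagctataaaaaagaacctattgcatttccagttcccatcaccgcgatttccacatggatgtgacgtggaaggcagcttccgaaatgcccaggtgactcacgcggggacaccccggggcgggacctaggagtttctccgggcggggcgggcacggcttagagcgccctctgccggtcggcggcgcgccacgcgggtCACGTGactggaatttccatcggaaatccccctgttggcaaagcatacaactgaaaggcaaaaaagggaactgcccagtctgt
Psme3, chr11:101315963-101316262, plus strand: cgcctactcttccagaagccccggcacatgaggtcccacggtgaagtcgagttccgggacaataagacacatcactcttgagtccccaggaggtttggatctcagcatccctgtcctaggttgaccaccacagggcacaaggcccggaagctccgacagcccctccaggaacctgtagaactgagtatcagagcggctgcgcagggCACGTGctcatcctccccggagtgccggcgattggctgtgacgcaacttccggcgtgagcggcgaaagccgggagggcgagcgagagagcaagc
Ubfd1, chr7:122066948-122067247, plus strand: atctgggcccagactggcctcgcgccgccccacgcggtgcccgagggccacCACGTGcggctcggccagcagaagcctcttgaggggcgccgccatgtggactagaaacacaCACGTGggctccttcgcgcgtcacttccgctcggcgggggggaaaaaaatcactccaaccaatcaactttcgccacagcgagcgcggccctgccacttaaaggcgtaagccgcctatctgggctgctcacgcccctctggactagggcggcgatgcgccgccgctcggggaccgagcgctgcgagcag

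Tfec, which encodes a transcription factor of the MiT family, and Vrk1, which encodes a nuclear kinase, carried a STAT6 peak and no MYC peak. The Tfec peak was the 126th strongest STAT6 peak (−log10 p 333, fold enrichment 64.2), with its summit at position 24 and the palindrome starting at position 51. The Vrk1 peak was the 565th (−log10 p 257, fold enrichment 35.4), with its summit at position 202 and the palindrome at position 209. In the 3 shared promoters the palindrome and the E-box stand in the same 300 bases, because they were chosen for this. At Psmb10, an immunoproteasome subunit, the STAT6 summit was at position 192 beside the palindrome at position 184, and the MYC summit was at position 136 on the E-box at position 135, a spacing of 56 bp. At Elf4, an ETS factor, the palindrome is at position 249 and the E-box at position 32, and the summits were 15 bp apart, at position 231 for STAT6 and 246 for MYC. At Tnfaip3, which encodes the NF-κB inhibitor A20, both summits (positions 36 and 82) were nearer to the palindrome at position 9 than to the E-box at position 218. Psme3, which encodes a proteasome activator, and Ubfd1 had MYC peaks of rank 4 and 24 in the MYC list, with −log10 p of 180 and 132, and no STAT6 peak. Psme3 has its MYC summit at position 102 and its E-box at position 207. Ubfd1 has its MYC summit at position 88 and E-boxes at positions 52 and 113. Both of these MYC peaks were also in the lists of untreated cells, IL4 4 h and IFNγ plus IL4 2 h.

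Of the STAT6 peaks, 5580 of 24927 were shared (22.4%, interval 21.9 to 22.9), and of the MYC peaks, 5653 of 13211 (42.8%, interval 41.9 to 43.6). These made 5756 overlapping pairs in 5477 merged regions and left 19347 STAT6-only and 7558 MYC-only peaks. The counts of shared peaks differ because 169 STAT6 peaks overlapped more than 1 MYC peak and 100 MYC peaks overlapped more than 1 STAT6 peak. The overlaps were seldom marginal: the median overlap was 172 bp (quartiles 127 and 242 bp), and 62 pairs overlapped by 20 bp or less. Few peaks just missed the rule, with a MYC edge within 20 bp of 28 STAT6-only peaks and within 200 bp of 331. By chromosome, the shared share of STAT6 peaks ran between 11.7% on X and 29.3% on chromosome 11, and that of MYC peaks between 30.1% on X and 47.7% on chromosome 1, leaving out Y with 5 and 1 peaks. The STAT6 list is the longer. Against a STAT6 list reduced to the 13211 strongest peaks, 22.1% of the MYC peaks were shared. When overlap had to cover 50% of both peaks, the shares were 10.5% of STAT6 peaks and 19.8% of MYC peaks.

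The classes lay in different places. A peak was put at a promoter where its summit was within 1000 bp of a known gene start, otherwise in a gene body, within 20 kb of a gene or further away. Promoters held 7.06% of STAT6-only peaks (1338 of 18965 that could be placed), 38.7% of shared STAT6 peaks (2019 of 5222) and 68.6% of MYC-only peaks (4599 of 6702). The order was reversed further away, which held 23.3%, 11.7% and 3.64% of these classes. Gene bodies held 50.3% of STAT6-only, 33.4% of shared and 19.9% of MYC-only peaks. The median distance from summit to nearest known start was 22176 bp for STAT6-only, 2177.5 bp for shared STAT6 and 246 bp for MYC-only peaks. It was taken over the 14837, 4446 and 6077 peaks with a known start nearer than any end of a gene without one. For the shares above, 382, 358 and 856 peaks of the classes could not be placed, because they lay near an end of a gene whose start is not known here. The 3 promoter shares kept this order with promoters drawn at 500 bp (4.69%, 34.0% and 57.8%) and at 2500 bp (11.9%, 44.8% and 75.2%). With the reduced STAT6 list the shares were 4.61% for STAT6-only, 19.9% for shared and 65.7% for MYC-only peaks.

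**Figure D1:**
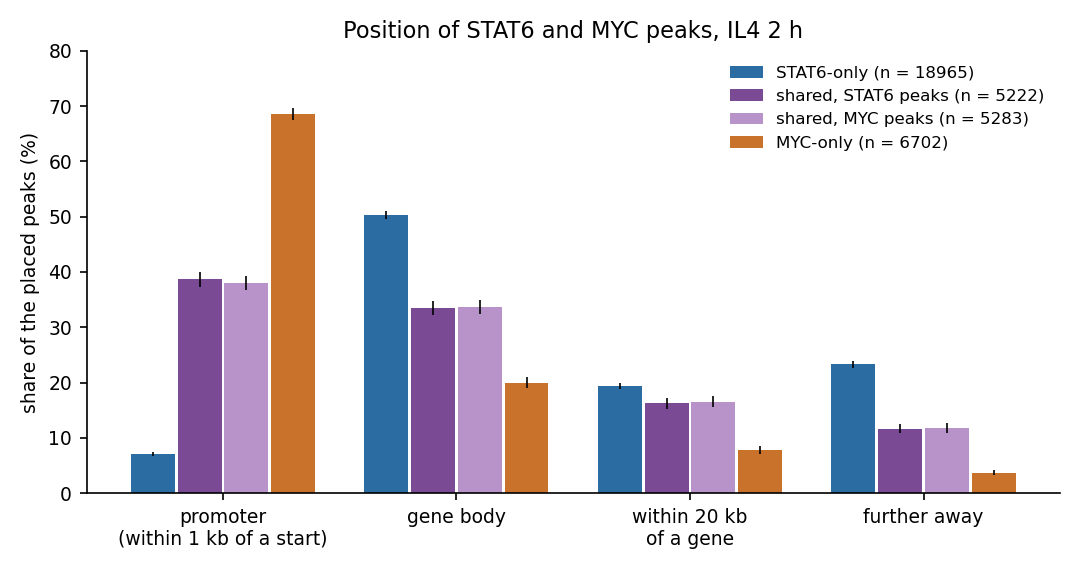
Share of placed peaks (y axis, percent) in 4 kinds of position (x axis) for STAT6-only peaks, shared STAT6 peaks, shared MYC peaks and MYC-only peaks; bars show the share and lines the exact 95% interval, counting error only. At promoters the bars stand at 7.06% for STAT6-only, 38.7% for shared STAT6 and 68.6% for MYC-only peaks, and further away at 23.3%, 11.7% and 3.64%.

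Within promoters the summits of all classes piled up at the start, with small differences in offset. The median offset from the start, negative upstream, was -44.5 bp for STAT6-only peaks, -56 bp for shared STAT6 peaks, -25 bp for shared MYC peaks and 2 bp for MYC-only peaks. Downstream of the start lay 39.0% of STAT6-only and 50.6% of MYC-only promoter summits. The middle 50% of shared STAT6 summits spread between -169 and 23 bp, and that of STAT6-only summits between -246.5 and 195 bp.

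**Figure D2:**
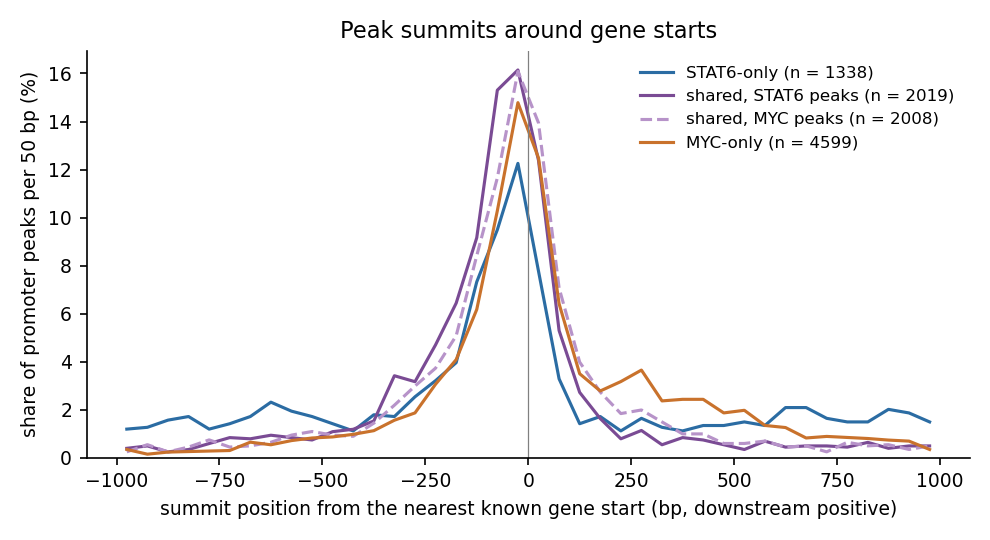
Summits of promoter peaks (y axis, percent of the promoter peaks of a class per 50 bp) against their position from the nearest known gene start (x axis, bp, downstream positive), with 1 line for each of STAT6-only, shared STAT6, shared MYC and MYC-only peaks. All lines peak at the start; the MYC-only line has a shoulder downstream of it and the STAT6-only line the flattest flanks.

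The share of peaks that were shared differed with position, and in opposite directions for STAT6 and MYC. STAT6 peaks at promoters were shared in 60.1% of cases (2019 of 3357), against 15.4% of STAT6 peaks elsewhere (3203 of 20830). MYC peaks at promoters were shared in 30.4% of cases (2008 of 6607), against 60.9% of MYC peaks elsewhere (3275 of 5378). The shared counts are nearly the same from either list, so the opposite directions reflect the differing numbers of STAT6 and MYC peaks at each position. Whether the factors met more often than list size alone would give was not tested. A STAT6 peak away from promoters seldom had a MYC partner, and a MYC peak away from promoters had a STAT6 partner in the majority of cases. Each list was next divided into 10 classes of equal size by −log10 p, class 1 the strongest. STAT6 peaks away from promoters were shared in 28.0% of cases in class 1 and 17.0% in class 2, and in 12.1% in class 10. MYC peaks at promoters were shared in 41.9% of cases in class 1 and 19.6% in class 10, and MYC peaks elsewhere in 69.5% and 56.6%. Promoter STAT6 peaks showed no such decline, with 50.8% in class 1, 67.2% in class 6 and 59.4% in class 10. They were mostly weak peaks: class 1 held 128 of them and class 10 held 636. Over all positions the median −log10 p was 16.7 for shared STAT6 and 18.4 for STAT6-only peaks, and 13.2 for shared MYC and 11.9 for MYC-only peaks. The −log10 p depends on depth and input, so it ranks peaks within 1 list and does not compare STAT6 with MYC.

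**Figure D3:**
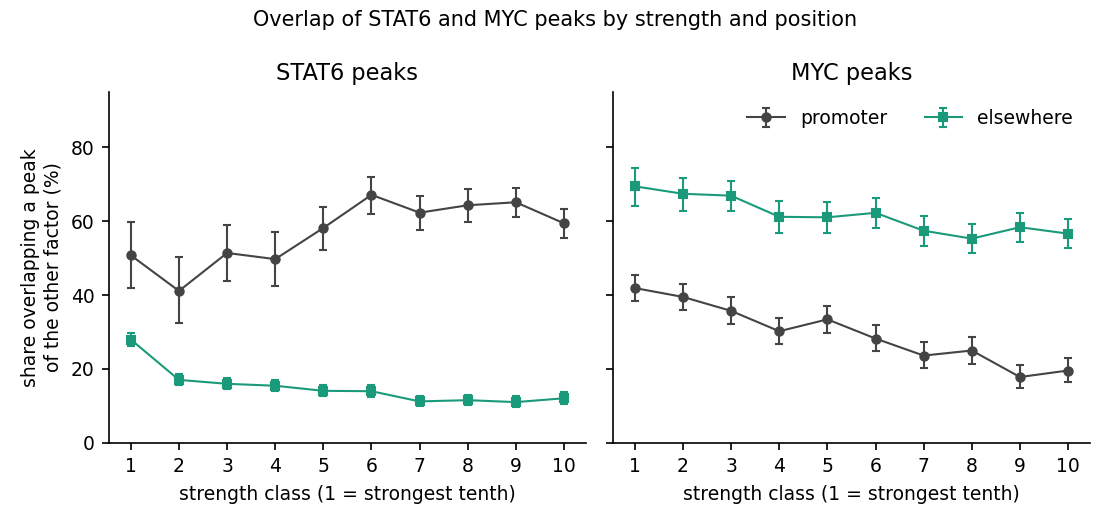
Share of STAT6 peaks (left) and MYC peaks (right) that overlap a peak of the other factor (y axis, percent) by strength class within the list (x axis, 1 = strongest), at promoters and elsewhere; lines on the points are exact 95% intervals, counting error only. STAT6 peaks are shared more at promoters (41.1% to 67.2%) than elsewhere (11.0% to 28.0%), MYC peaks less at promoters (17.8% to 41.9%) than elsewhere (55.3% to 69.5%), in every class.

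At shared sites the summits were close. Over the 5580 shared STAT6 peaks the median distance to the nearest overlapping MYC summit was 62 bp (interval of the median 60 to 64 bp, quartiles 28 and 118 bp). Summits within 20 bp of each other made up 18.5%, those within 50 bp 42.8%, those within 100 bp 68.7% and those within 200 bp 88.2%. Spacing was wider at promoters (median 79 bp) than in gene bodies (53 bp), within 20 kb of genes (55 bp) or further away (52 bp). At promoters the MYC summit was downstream of the STAT6 summit, in the direction of the gene, at 1151 sites and upstream at 857 (57.3% downstream, interval 55.1 to 59.5), with a median shift of 20 bp. The widest spacing was 1671 bp, at a broad peak. Spacing is bounded by peak width, which had medians of 290 bp for shared STAT6 and 243 bp for shared MYC peaks, against 251 bp for STAT6-only and 215 bp for MYC-only peaks. Unshared peaks were not simply near misses. From a STAT6-only summit the nearest MYC summit was a median 25263 bp away, with 5.55% within 1000 bp, and from a MYC-only summit the nearest STAT6 summit was 14141 bp away, with 14.6% within 1000 bp.

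**Figure D4:**
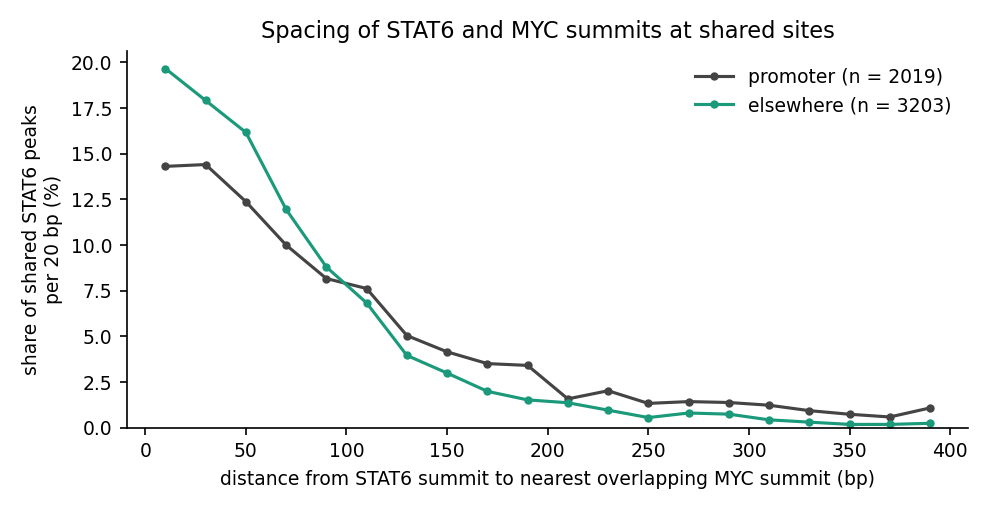
Distance between the STAT6 summit and the nearest overlapping MYC summit (x axis, bp) against the share of shared STAT6 peaks per 20 bp (y axis, percent), at promoters and elsewhere. Both curves are highest below 40 bp and fall with distance; the curve away from promoters starts higher and falls faster (medians 52 to 55 bp, against 79 bp at promoters).

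Motif content differed between the classes at promoters, for both factors' motifs and for others. Of 21237 promoter windows of RefSeq, 951 had STAT6 only within 1 kb of the start (4.48%), 2385 had a shared site (11.2%), 324 had both factors at separate sites (1.53%) and 4067 had MYC only (19.2%). The STAT6 palindrome, searched on both strands, which read alike for a palindrome, was found in 11.6% of STAT6-only, 7.92% of shared and 3.64% of MYC-only windows, and in 6.34% of all windows. CACGTG, also its own reverse complement, was found in 5.57% of STAT6-only, 13.2% of shared and 13.4% of MYC-only windows, and in 7.84% of all. Base composition moved with the classes: median GC content was 54.7%, 62.0% and 64.3%, and the median number of CpG dinucleotides in the 300 bases was 12, 23 and 25. Among windows of 55 to 65% GC the palindrome was in 8.26% of STAT6-only, 7.98% of shared and 3.63% of MYC-only windows (5.12% of all), and the E-box in 6.49%, 13.6% and 14.2% (9.93% of all). At this GC content shared windows held palindromes at a share close to that of STAT6-only windows and E-boxes at a share close to that of MYC-only windows. Other motifs differed between the classes too. The PU.1 motif GAGGAAGT, searched on both strands, was in 6.73% of STAT6-only, 4.36% of shared and 2.39% of MYC-only windows (3.13% of all). That is the order of the STAT6 palindrome over all windows. At 55 to 65% GC the PU.1 motif was in 4.72%, 4.77% and 2.59% (2.94% of all), nearly level between STAT6-only and shared windows. The palindrome TTCNNNGAA of other STAT factors was in 9.67%, 8.30% and 5.07% (7.69% of all), and at 55 to 65% GC in 7.08%, 9.45% and 6.87% (6.95% of all). Over all windows the AP-1 motif TGANTCA became less frequent over the 3 classes, with 9.67%, 4.15% and 3.15% (6.99% of all). So did the C/EBP motif TTGCNNAA, with 11.9%, 8.18% and 6.93% (10.2%), and the interferon response element, with 7.36%, 3.23% and 1.92% (3.34%). The NRF1 motif ran the other way, with 1.37%, 2.05% and 2.80% (1.33%). At 55 to 65% GC the AP-1 shares were 6.49%, 4.22% and 3.18% (4.97% of all). Those of NRF1 were 0.885%, 1.93% and 2.66% (1.76%), the first from 3 of 339 windows. Both motifs kept the order seen over all windows. The C/EBP shares were 6.49%, 7.71% and 8.75% (8.12%), without the decline seen over all windows. The STAT6-only value, from 22 of 339 windows, has an interval of 4.11% to 9.66%, which holds both other values. The interferon response element kept no order, with 2.65%, 3.39% and 2.33% (2.42%), the first from 9 of 339 windows. By medians over differing sets of windows, the summits of each factor also lay nearer its own motif. Where window and summit allowed the measurement, STAT6 summits were a median 30.5 bp from a palindrome (n = 249) and 62.5 bp from an E-box (n = 245), and MYC summits 28.5 bp from an E-box (n = 680) and 101.5 bp from a palindrome (n = 218). Within 25 bp of the factor's own motif lay 43.0% of the 249 STAT6 summits and 45.3% of the 680 MYC summits. Most promoters of either factor held neither motif in these letters within the 300 bases searched. A match is a description of the window, not a binding site. The classes took peaks within 1 kb of the start, so many summits lay outside these bases, which end 50 bp downstream. That differed by class: the upper quartile of summit offset was 195 bp for STAT6-only, 23 bp for shared STAT6 and 212.5 bp for MYC-only promoter peaks.

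Shared sites were also listed more often in other libraries. Of 5580 shared STAT6 peaks 4184 overlapped a STAT6 peak of cells given IFNγ with IL4 (interval 73.8% to 76.1%), against 12951 of 19347 STAT6-only peaks (66.9%, 66.3% to 67.6%). At promoters these shares were 67.0% and 62.8%, and elsewhere 80.9% and 67.4%. The strongest peaks were nearly all in both lists, with 100% of shared and 100% of STAT6-only peaks of strength class 1. From class 3 down to class 10 shared peaks were listed more often, with 98.9% against 94.6% in class 3, 79.7% against 60.4% in class 6 and 38.4% against 29.9% in class 10. Averaged with equal weight over the 10 strength classes, the shares were 76.4% and 66.6%. On the MYC side, 66.7% of shared and 60.3% of MYC-only peaks were also in the MYC list of IL4 4 h, 23.4% and 18.9% in that of IFNγ plus IL4 at 2 h, and 4.30% and 3.02% in that of untreated cells. The gaps were smaller with equal weight over strength classes. The shares were then 64.3% and 62.3% at IL4 4 h and 21.0% and 20.5% with IFNγ plus IL4. Within each position these equal-weight gaps were wider. At promoters the shares were 71.1% and 65.5% at IL4 4 h and 24.1% and 21.6% with IFNγ plus IL4. Elsewhere they were 60.2% and 55.4%, and 18.4% and 15.9%. For untreated cells they were 4.33% and 3.48% at promoters and, in the opposite order, 2.85% and 3.06% elsewhere. With the reduced STAT6 list the order over all positions turned round for IFNγ plus IL4, with 20.3% of shared and 20.9% of MYC-only peaks also listed. Few unshared sites gained the other factor elsewhere: 420 STAT6-only peaks (2.17%) overlapped a MYC peak of IL4 4 h, and 6.21% of MYC-only peaks a STAT6 peak of IFNγ plus IL4. These lists come from separate libraries, whose depth the files do not give.

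Away from promoters the shared sites were also richer in peaks of other factors that were present before IL4. JUNB, a subunit of AP-1, had a peak in untreated cells at 42.1% (interval 40.3 to 43.8) of shared STAT6 peaks away from promoters, against 20.3% (19.8 to 20.9) of STAT6-only peaks there. With equal weight over strength classes the values were 39.4% and 20.1%. MYC peaks away from promoters showed the same order, with JUNB of untreated cells at 40.9% of shared and 10.7% of MYC-only peaks. CEBPB, a C/EBP factor of myeloid cells, was listed in untreated cells at 17.8% of shared and 9.42% of STAT6-only peaks away from promoters, and at 16.6% of shared and 4.71% of MYC-only ones. At promoters the JUNB shares were 10.5% of shared and 12.0% of STAT6-only peaks, and 10.3% of shared and 1.30% of MYC-only peaks. The untreated JUNB list reaches down to a −log10 q of 0, lower than the other lists, so its shares are not on the same threshold.

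A site was assigned to every protein-coding gene whose span came within 20 kb of the summit. Among 21883 protein-coding genes, 2359 had STAT6-only sites alone (10.8%), 6058 had a shared site (27.7%), 2472 had sites of both factors but none shared (11.3%), 2659 had MYC-only sites alone (12.2%), and 8335 had neither. A STAT6 site of any class lay near 49.8% and a MYC or shared site near 51.1% of genes. Genes with a shared site numbered 3469 when overlap had to cover 50% of both peaks and 2945 with the reduced STAT6 list. Promoters with MYC only were not devoid of STAT6 in the neighbourhood: 2480 of 4067 (61.0%, interval 59.5 to 62.5) belonged to genes with a STAT6 site elsewhere within 20 kb, against 37.4% (36.6 to 38.2) of promoters with neither factor.

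The gene lists differed most at their own starts. Over 17469 protein-coding genes with a known start, 4.48% had STAT6 only there, 11.9% a shared site, 1.73% both apart and 19.5% MYC only. Of 25 genes of ribosome production 20 have a known start, and all 20 carried MYC there, 9 in a shared site, 1 with STAT6 apart and 10 with MYC only. All 20 of the growth and metabolism genes with a known start carried MYC there too, 6 in a shared site and 14 with MYC only. Among 17 translation initiation genes the split was 12 shared, 1 with both apart and 4 MYC only. No gene of these 3 lists had STAT6 only at its start, but the share over all known starts was only 4.48% and the lists are short. Of 20 IL4 response genes, 6 had STAT6 only, 6 a shared site, 2 MYC only and 6 neither. The interferon and inflammatory lists had a split close to that of the IL4 list. Of 19 IFNγ response genes, 5 had STAT6 only at the start, 6 a shared site, 1 both apart, 2 MYC only and 5 neither, while the 19 AP-1 and inflammation genes gave 5, 8, 1, 1 and 4. Of 15 genes of the IL4 receptor and its signalling 2 had STAT6 only, 6 a shared site, 5 MYC only and 2 neither, and of 11 genes of the MYC and MAX network none had STAT6 only, 3 a shared site, 1 both apart, 4 MYC only and 3 neither. Of 15 macrophage identity genes 2 had STAT6 only, 8 a shared site and 5 neither, with MYC only at none. The label of the cells was checked against marker genes. No start of 18 marker genes of other blood and stromal cell types, or of 21 genes of other organs, carried either factor. Over all known starts 62.4% carried neither. Within 20 kb, 5 of 25 IFNγ response genes had STAT6 alone, 13 a shared site, 5 both apart, none MYC alone and 2 neither. Among 25 AP-1 and inflammation genes 4 had STAT6 alone, 18 a shared site, 2 both apart, none MYC alone and 1 neither, and of 25 macrophage identity genes 4 had STAT6 alone, 19 a shared site, 1 both apart and 1 MYC alone. Within 20 kb the lists of other cell types and organs had neither factor at 14 of 25 and 18 of 25 genes, against 38.1% of all protein-coding genes. In these 2 lists 5 and 2 genes had a shared site within 20 kb.

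**Figure D5:**
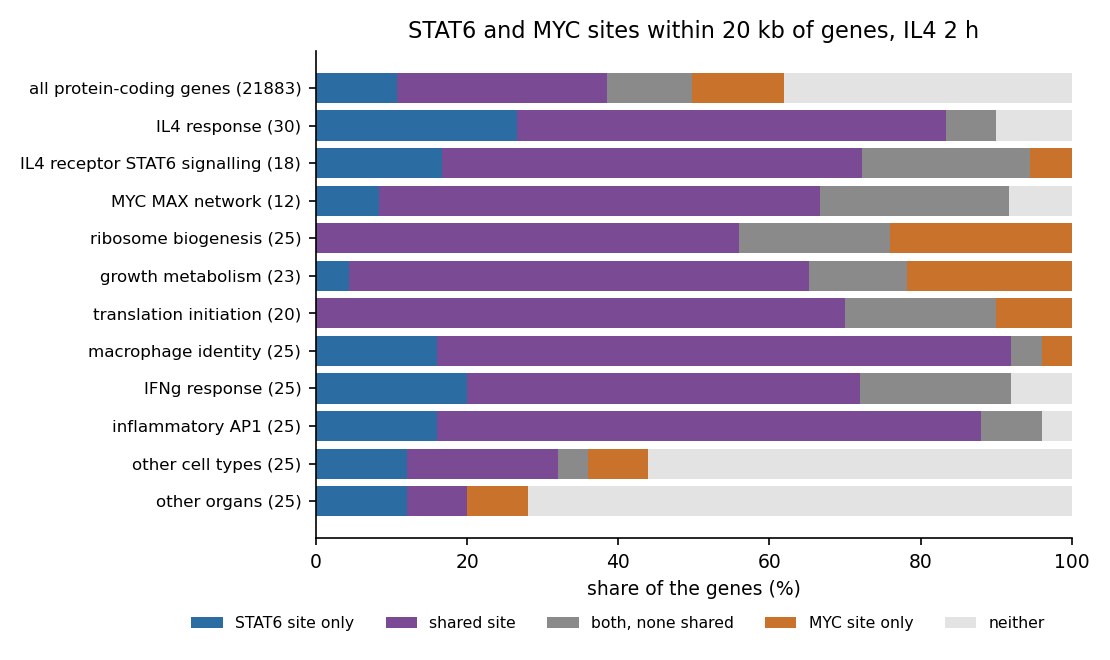
Share of genes (x axis, percent) with a STAT6 site only, a shared site, both factors without a shared site, a MYC site only or neither within 20 kb, for all protein-coding genes and 11 lists (rows, number of genes in brackets). IL4 response genes have the longest STAT6-only segment (8 of 30), followed by IFNγ response genes (5 of 25). The IL4 response, IFNγ response, inflammatory and MYC network lists have no MYC-only segment, while ribosome biogenesis genes have no STAT6-only segment and 6 of 25 with MYC only.

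Among 30 genes that respond to IL4, 8 had STAT6-only sites alone, 17 a shared site, 2 both factors apart, none MYC alone and 3 neither. STAT6-only sites prevailed in number, and 18.9% of the STAT6 sites near these genes were shared, against 30.1% over all gene and site pairs. Arg1, which encodes arginase and is the classical marker of IL4 macrophages, had 2 STAT6-only and 3 shared sites. Its strongest, chr10:24929944-24930778, lies 2.83 kb outside the gene span and ranked 45th in the STAT6 list (−log10 p 360, fold enrichment 78.5), while the MYC peak inside it ranked 9872nd in the MYC list (−log10 p 9.26, summits 113 bp apart). The start of Arg1 is not among the known starts, so no side is given. A second shared site 0.686 kb from the gene, chr10:24927624-24928540, ranked 761st for STAT6 and 5216th for MYC. In the third shared site, which lies within the neighbouring Med23, MYC stood higher in its list, with STAT6 at rank 4868 and MYC at rank 1640. All 3 STAT6 peaks were also listed with IFNγ plus IL4, and none of the 3 MYC peaks was.

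The pairing of a strong STAT6 peak with a weak MYC peak was found at some other IL4 response genes and not at others. Cish, a feedback inhibitor of cytokine receptors, had the second strongest STAT6 peak of the list 5.239 kb from the gene (chr9:107307198-107308456, −log10 p 422, fold enrichment 110), and the MYC peak in it ranked 12806th of 13211 (−log10 p 6.11). Another of its 3 shared sites, at the start of the neighbouring Mapkapk3, had a weak STAT6 peak (rank 20311) and a stronger MYC peak (rank 1911). The Cish promoter itself carried STAT6 without MYC. Pdcd1lg2, the gene of PD-L2, a ligand of the PD-1 checkpoint, had 14 STAT6-only and 4 shared sites. One of the shared sites is its promoter, with STAT6 at rank 112 and MYC at rank 9433, summits 41 bp apart. Mrc1, the mannose receptor, had 15 STAT6-only sites and a single shared site 0.623 kb upstream of its start (STAT6 rank 362, MYC rank 4897). Il4ra, the IL4 receptor chain, had 14 STAT6-only and 3 shared sites. At its promoter both peaks were modest (STAT6 rank 18367, −log10 p 11.0; MYC rank 7683, −log10 p 11.3), and the summits were 25 bp apart. A second Il4ra site, 1.042 kb upstream, had STAT6 at rank 9487 and MYC at rank 2989, and the third, in the gene body, STAT6 at rank 6247 and MYC at rank 13135. Bcl6, a transcriptional repressor, was the STAT6-only extreme, with 12 STAT6-only sites and no MYC site, among them a promoter peak of rank 69 (chr16:23988211-23989488, −log10 p 350). Batf3, a bZIP factor, had 12 STAT6-only, 2 shared and 2 MYC-only sites, and its start was in MYC-only sites. Pparg, a lipid-sensing nuclear receptor, had 8 STAT6-only sites, a shared one in the gene body at STAT6 rank 229, and a MYC-only peak 0.02 kb from a start. Flt1, a VEGF receptor, had 9 STAT6-only and 2 shared sites, with summits 7 bp apart in the stronger.

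Of the 18 genes of the IL4 receptor and its signalling, 3 had STAT6 alone, 10 a shared site, 4 both apart and 1, Jak3, MYC alone, named after its values were seen. The feedback inhibitor Socs1 stood out for MYC strength: the shared peak over its start, chr16:10784877-10787668, ranked 307th for STAT6 (−log10 p 296) and 648th for MYC (−log10 p 44.8), and both were also listed with IFNγ plus IL4. Socs3 had 4 sites of each class. The shared peak at its start ranked 2095th for STAT6 and 8852nd for MYC. Jak1, a receptor kinase, had 4 STAT6-only sites, a MYC-only site at its start and a shared site in the gene body (STAT6 rank 551, MYC rank 1397, summits 513 bp apart). The phosphatase gene Ptpn1 had 6 STAT6-only, 3 shared and 1 MYC-only site, the last at its start. Ptpn6, also a phosphatase gene, had 4, 2 and 2. Stat6 itself had 4 STAT6-only, 3 shared and 2 MYC-only sites, all modest for STAT6. The shared peak at its start ranked 16348th for STAT6 (−log10 p 12.7) and 2977th for MYC (−log10 p 20.2).

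In the MYC and MAX network, 1 of 12 genes had STAT6 alone, 7 a shared site, 3 both apart and 1 neither. The gene with STAT6 alone was Myc. Its 4 STAT6-only sites were of middle or lower rank, at 10965, 14268, 14360 and 17691 of 24927. Their −log10 p lay between 11.6 and 21.0, against a median of 17.9 over the STAT6 list. All 4 were also listed with IFNγ plus IL4, and no MYC peak lay within 20 kb. The start of Myc is not among the known starts. Max, the partner of MYC, had 1 shared site at its start, weak for STAT6 (rank 21726, −log10 p 8.41) and strong for MYC (rank 263, −log10 p 65.3), with summits 321 bp apart. Mlxip, which encodes a glucose-responsive factor of the network, had the same form at its start (STAT6 rank 21454, MYC rank 157). Mnt, a repressor that competes for MAX, had 3 shared and 4 MYC-only sites and no STAT6-only one, and its strongest was MYC-only, in the gene body (chr11:74837623-74838044, rank 179, −log10 p 74.6). Of the other MAX partners, Mxd4 had a STAT6-only peak of rank 828 and a separate MYC-only promoter peak of rank 2567, and Mga had a STAT6-only and a MYC-only peak at its start, 0.821 and 0.388 kb downstream. Mxd1 had 3 STAT6-only, 1 shared and 1 MYC-only site. Mxd3 had 1 of each, and Mycl had 2 STAT6-only and 1 MYC-only site.

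Ribosome production genes showed the opposite balance. Of 25, none had STAT6 alone (10.8% of all protein-coding genes), 14 a shared site (27.7%), 5 both apart (11.3%) and 6 MYC alone (12.2%). Of the STAT6 sites near them 47.2% were shared, and 54.8% near the translation initiation genes, against 32.7% near the growth and metabolism genes and 30.1% over all gene and site pairs. At Ncl, which encodes nucleolin, a strong STAT6-only peak of rank 772 (chr1:86344140-86344754, −log10 p 234) lay 0.251 kb beyond the far end of the gene. The start of Ncl carried the strongest MYC peak of the list (chr1:86358301-86360139, −log10 p 238, fold enrichment 66.2), with no STAT6 overlap, and MYC was also listed there in untreated cells. Dkc1, the pseudouridine synthase dyskerin, had a MYC-only start peak of rank 130 (−log10 p 81.8), and Nop16 one of rank 958. Nop58, a box C/D snoRNP core protein, had a shared start: STAT6 ranked 12854th (−log10 p 17.3) and MYC 65th (−log10 p 104), with summits 73 bp apart. Ubtf, the RNA polymerase I transcription factor UBF, had a shared start, of rank 24092 for STAT6 and 3341 for MYC, and 5 MYC-only sites. Polr1a, the largest subunit of RNA polymerase I, had 2 shared sites away from its start and a MYC-only start of rank 1796. Rrp12 had 1 STAT6-only, 1 shared and 2 MYC-only sites. Tcof1 had 2, 2 and 1, and the strongest of them for STAT6, a shared site of rank 177, lay within the neighbouring Cd74, the MHC class II invariant chain.

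The growth and metabolism list held 1 gene with STAT6 alone (Ccnd2, a cyclin named after its values were seen), 14 with a shared site, 3 with both apart and 5 with MYC alone, of 23. Odc1, the rate-limiting enzyme of polyamine synthesis, had 2 MYC-only peaks at its start, of rank 749 (chr12:17545134-17545573, −log10 p 42.4) and 3149 (−log10 p 19.9), and no STAT6 site within 20 kb. Hk2, which encodes hexokinase, had a shared site 10.14 kb into the gene and a MYC-only start peak of rank 82 (−log10 p 96.4). Tfrc, the transferrin receptor, had a STAT6-only peak of rank 708 (−log10 p 242) 15.326 kb upstream and a MYC-only start peak of rank 297 (−log10 p 62.7). Mthfd1, a folate enzyme, had the same arrangement, with a STAT6-only gene body peak of rank 1248 and a MYC-only start of rank 1882. Pkm and Eno1, which act in glycolysis, had 1 shared site each, at the start for Pkm and 1.377 kb downstream for Eno1, and 3 and 4 MYC-only sites. Shmt1, Gart and Umps, of folate and nucleotide synthesis, had 2, 3 and 2 MYC-only sites, at least 1 of them at the start in each.

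The strongest STAT6-only and MYC-only sites repeated this division, while none of the strongest shared sites was at a known start. The 6 strongest STAT6-only peaks (ranks 1, 4, 5, 6, 9 and 12, −log10 p between 389 and 424) had as nearest genes Gm33049, Il1rl2, Tnk2, Lipk, Ppp2r3a and Prep, with Prep 121.935 kb away, and none was at a promoter. All 6 were also listed with IFNγ plus IL4, and the strongest, chr15:88855172-88856047, overlapped a MYC peak of IL4 4 h. The 6 strongest shared sites by summed rank were nearest to Poli, Wdr46, Clvs1, Fgd2, Pde7b and Ppp1r26. Of them, 3 lay further than 20 kb from any protein-coding gene and none at a known start. No start is known on the chromosome of Poli. At these 6, STAT6 ranked between 17 and 401 and MYC between 175 and 607, summits were 9 to 420 bp apart, and all were also in the lists of STAT6 with IFNγ plus IL4, MYC with IL4 4 h and MYC with IFNγ plus IL4. The 6 strongest MYC-only peaks lay at Ncl, Psme3, Pfn1, Gar1, Larp1 and Anp32b, 4 of them at promoters. All 6 were also MYC peaks in untreated cells, and none overlapped STAT6 with IFNγ plus IL4.

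Among the genes with the most shared sites were 3110082I17Rik with 10, Zc3h12a and Clec16a with 8 each, and Meaf6 and Csk with 7 each. Zc3h12a encodes the RNase Regnase-1, which degrades inflammatory mRNAs. It had 1 STAT6-only and no MYC-only site, and its strongest shared site, chr4:125131125-125132189, lay 3.89 kb upstream (STAT6 rank 18, −log10 p 381; MYC rank 1226, −log10 p 33.5). Meaf6 is its neighbour and shares most of these sites. Csk, a kinase that restrains Src-family kinases, had 7 shared sites and no unshared one; STAT6 was strong in 2 of them (ranks 492 and 1033) and MYC in another, at rank 1228. Clec16a had 13 STAT6-only sites besides its 8. Its shared sites included STAT6 peaks of rank 22 and 119, with MYC at rank 10436 and 6647, and its STAT6-only sites included peaks of rank 29 and 56. The nearest known start to these 4 peaks was that of Socs1, 81.296 to 90.317 kb away.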

How the data were processed

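Peak lists of single ChIP-seq libraries were used, 1 per group. Per the submitters' processing notes the authors used Bowtie2 2.2.6, MACS2 2.1.0.20150731 and the build mm10 (GRCm38); the sources used here do not give their settings. Each deposited narrowPeak list holds, per peak, a score (10 times the −log10 q, or the −log10 p in untreated JUNB), a fold enrichment over background (a ratio), −log10 p, −log10 q and a summit offset, all values of the authors. Depth per library is not in the files, so precision is known for counts of peaks only. Every list used passes −log10 q 2 except untreated JUNB.

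Peaks were compared in Python 3.11.15 with numpy 2.4.6, pandas 2.3.3, scipy 1.17.1 and, for figures, matplotlib 3.10.9: overlap of at least 1 bp, after removal of peaks that overlap an input peak (23 of MYC, 0 of STAT6). Strength classes divide a list into 10 by −log10 p. Gene spans and starts come from RefSeq tables of GRCm38.p6: 21883 protein-coding genes, 17491 with a known start and 4392 without; a peak within 1 kb of an end of a gene without a known start, and of no known start, was left unplaced. Overlap, spacing and nearest-start code was tested on simulated data. No test was run, because each group is 1 library.

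Named genes are, in 5 lists, up to 8 genes with the most sites, plus Myc, Stat6, Max, Arg1, Cish, Ncl and Odc1, the nearest genes of the 6 strongest sites per class and the 6 genes with the most shared sites; the other lists are given by counts only. One gene that this rule names is not reported here. Members and lists were chosen with earlier results of these data known.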

Additional observations from a re-analysis of the deposited data

How the results depend on the processing

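Under other overlap rules, thresholds and promoter widths, 44 values moved and 19 did not. A share or median counted as moved where it left the main value's interval, and the number of genes near a shared site where it changed by over 1.5 times. That number was 6058, and 4513 with summits within 100 bp, 4987 with −log10 q of at least 5, and 4239 and 8594 with windows of 5 and 50 kb. Keeping input peaks moved none.

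With overlap of 50% of both peaks, 10.5% of STAT6 and 19.8% of MYC peaks were shared, promoters held 11.3% of STAT6-only, 37.1% of shared and 59.7% of MYC-only peaks, the median spacing was 47 bp and 3469 genes were near a shared site. Of shared and STAT6-only peaks 66.2% and 60.4%, and of shared and MYC-only peaks 9.21% and 7.38%, were then also listed with IFNγ plus IL4. With summits within 100 bp the values were 15.4% and 29.0% shared, 10.4%, 33.5% and 64.4% at promoters, 40 bp, and 69.5% and 64.4%, and 18.9% and 17.1%, also listed. With −log10 q of at least 5 they were 19.1% and 39.2% shared, and 79.6% and 70.8%, and 26.7% and 22.9%, also listed. With the STAT6 list reduced to the length of the MYC list they were 21.3% and 22.1% shared, 4.61%, 19.9% and 65.7% at promoters, 57 bp, 2945 genes, and 95.8% and 88.9%, and 20.3% and 20.9%, also listed, the last pair in the opposite order to the main values of 23.4% and 18.9%. Promoters of 500 bp held 4.69%, 34.0% and 57.8%, and promoters of 2500 bp 11.9%, 44.8% and 75.2%, of STAT6-only, shared and MYC-only peaks. Fewer peaks and narrower rules change these values by construction; no other cause was tested.

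No paired analysis was possible because each group is 1 library. Leaving out a replicate was not possible for the same reason. Depth is not in the files: a site without a peak was not called at this depth, and list lengths of STAT6 and MYC cannot be told apart from depth and antibody. Base content and motifs were read at RefSeq promoters only.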
